A study of Mus musculus with 12 samples.

Results

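The RNA of 10 genes that encode transcription factors of heart muscle or of the T-box family was followed in whole mouse hearts bred to lose both corticosteroid receptors in cardiomyocytes. The genes were Gata4, Gata6, Hand2, Nkx2-5, Mef2a, Mef2c, Srf, Tbx5, Tbx20 and Tbx15, taken as every transcript probe whose gene name or older synonym was 1 of these. They had 23 of the 41174 probes of the array, 19 of the 26979 probes that passed the filter on dim signals, and all 10 genes were among the 18258 genes tested. The 4 groups, each of 3 hearts from male C57BL/6 mice, were cardioGRMRdKO and dflox at 2 months and cardioGRMRdKO and dflox at 1 month. In cardioGRMRdKO mice, called knockout here, an αMHC-Cre transgene, which is active in cardiomyocytes, acts on floxed alleles of Nr3c1 (glucocorticoid receptor) and Nr3c2 (mineralocorticoid receptor). The dflox mice were littermates with the same floxed alleles and no Cre, and no group carried Cre with intact receptor genes. Each heart was read on 1 single-colour (Cy3) Agilent array of the whole mouse genome.

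GATA4 and GATA6 (zinc finger), NKX2-5 (homeodomain), TBX5 and TBX20 (T-box), HAND2 (basic helix-loop-helix) and the MADS-box proteins MEF2A, MEF2C and SRF bind one another and shared enhancers, and together they switch on contractile, natriuretic peptide and ion channel genes during heart development. Most of them stay on in adult cardiomyocytes, where GATA4, GATA6, MEF2 and SRF also take part in the growth response to load. TBX15 is a T-box factor known from skeletal muscle, the craniofacial and limb skeleton and fat precursors, and not as a member of the cardiac network.

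Levels are log2 signals relative to the array's 75th percentile, so 0 is that percentile, and a level is compared only between hearts and never between probes. Differences are knockout minus dflox on the same log2 scale, from a limma model over all genes, and a gene is called when its Benjamini-Hochberg adjusted p over all 18258 genes is under 0.05. Where several probes of a gene passed, the brightest stands for it. In whole hearts, fewer cells of a type and less RNA per cell cannot be told apart. Between 63.7% and 71.9% of the transcript spots of an array passed the scanner software's criterion for well above background. The array means of 8 of the 12 cardiomyocyte markers, those with a usable spot on every array, were 6.49 to 6.90 in knockout and 6.85 to 6.92 in dflox hearts at 2 months, and 6.66 to 6.81 in knockout and 6.87 to 6.95 in dflox hearts at 1 month, where the genotypes did not overlap. Nr3c1 was lower at 2 months, at 1.44, 1.15 and 1.18 in knockout hearts against 2.51, 2.18 and 2.39 in dflox hearts (adjusted p = 0.00565). That call was lost with the normexp background correction (−0.94, adjusted p = 0.0538), the filter on all 12 arrays (−0.74, 0.33) and the mean of all probes (−0.74, 0.255). At 1 month, with 2 usable spots per genotype, its difference of −0.73 was not called (adjusted p = 0.119). It was called at that age only with outlier spots kept (−0.85, adjusted p = 0.0201). The dim Nr3c2 was not called at either age, with differences of −0.46 and 0.06, and its probe need not lie in the deleted part. At 1 month every knockout array had an inner place on its slide and every dflox array an outer one, so at 1 month genotype cannot be told apart from place. The array means of 12 airway marker genes also separated the genotypes at 1 month, at −2.35 to −0.60 in knockout and 2.15 to 3.23 in dflox hearts, and they ranged from −2.44 to 3.20 in knockout and from −2.37 to 3.54 in dflox hearts at 2 months. At 1 month the differences of all 13 airway genes tested were below 0, with a median of −4.96. The means of 8 cartilage markers also separated the genotypes at 1 month, at −2.28 to −1.91 in knockout and −1.29 to −0.56 in dflox hearts, with all 8 differences below 0. At 2 months they overlapped, at −2.13 to −1.22 in knockout and −2.09 to −1.20 in dflox hearts.

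Gata6 was the only member called lower at both ages. Tbx15 was called higher at 2 months on a dim probe that passed the filter only through the knockout groups, and without that filter it was not called (adjusted p = 0.0519). At 2 months these 2 of 10 genes were called, where 2.31% of all genes tested were called, 1.1% higher and 1.21% lower. At 1 month 1 of 10, Gata6, was called, against 0.98% of all genes, 0.542% lower. Averaged over both ages the same 2 genes were called, against 4.5% of all genes, 2.25% higher and 2.25% lower. Knockout and dflox hearts did not overlap for 3 of 10 genes at 2 months (Gata6, Mef2c and Tbx15), where this held for 17.7% of all genes. They did not overlap for 4 of 10 at 1 month (Gata4, Gata6, Tbx5 and Tbx15), where it held for 18.9% of all genes. The median difference of the 10 genes was −0.23 at 2 months and 0.03 at 1 month, against −0.10 and −0.00 over all genes. The plot of levels by heart shows all 10.

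**Figure D1:**
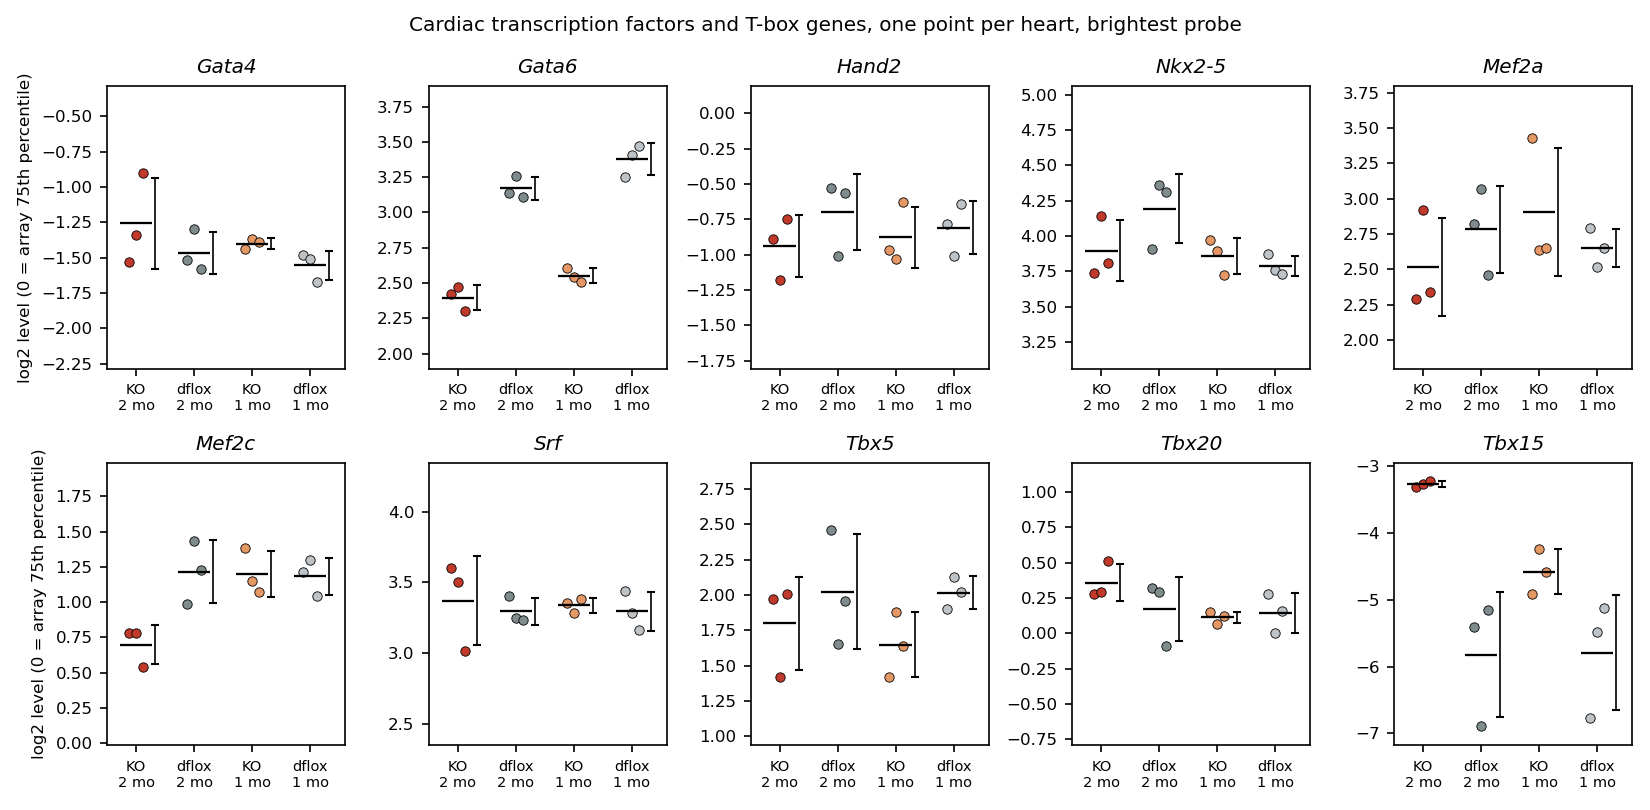
Log2 level of the 10 genes in each heart on the brightest probe (y axis, 0 is the array's 75th percentile) in knockout (KO) and dflox hearts at 2 and 1 months. Points are hearts, bars the mean and whiskers the SD (n = 3). Gata6 lies between 2.30 and 2.61 in the 6 knockout hearts and between 3.11 and 3.47 in the 6 dflox hearts, and Tbx15 lies highest in the knockout hearts of 2 months.

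Gata6 encodes a zinc finger factor that acts beside GATA4 in cardiomyocyte growth and survival and is also made in endoderm-derived and vascular cells. On its brightest probe (chromosome 18, 11291591 to 11291649, build mm7) the level was 2.42, 2.47 and 2.30 in knockout hearts at 2 months, against 3.14, 3.26 and 3.11 in dflox hearts. The 1-month level was 2.61, 2.54 and 2.51 in knockout hearts, against 3.25, 3.41 and 3.47 in dflox hearts. All 6 knockout hearts were below all 6 dflox hearts. Gata6 fell 1.71-fold at 2 months, which is −0.77 on the log2 scale (3 hearts per genotype, SE 0.0974, adjusted p = 0.00277), and 1.77-fold at 1 month (−0.83, SE 0.0974, adjusted p = 0.00322). The mean of the 2 differences was −0.80 (SE 0.0689, adjusted p = 1.39e-04). Gata6 ranked 75 of 18258 genes by p at 2 months, 34 at 1 month and 43 in the average. Being called lower at both ages held for 0.477% of all genes, and lying lower without overlap at both ages for 3.29%. The genotype difference at 2 months was 0.06 above that at 1 month (95% interval −0.25 to 0.36), which was not called (adjusted p = 0.958).

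The other probes of Gata6 were dimmer. Upstream on the same strand, a probe at 11271063 to 11271122 gave −1.71, −1.66 and −2.03 in knockout hearts at 2 months, against −1.05, −0.76 and −0.34 in dflox hearts. The 1-month values were −1.45, −1.89 and −1.76 in knockout hearts, against −0.74, −0.77 and −0.85 in dflox hearts. The genotypes again did not overlap at either age. In a fit over all 26979 probes its difference was −1.08 at 2 months (SE 0.185, adjusted p = 0.0154). The 1-month difference of −0.91 was not called (adjusted p = 0.0601), and the average, 1.99-fold lower, was (adjusted p = 0.00179). A GC-rich probe (80% G and C) at 11261086 to 11261145 lay far down the scale, at −4.51, −4.96 and −5.70 in knockout hearts and −4.84, −4.59 and −4.36 in dflox hearts at 2 months. On it the genotypes overlapped at both ages, and its differences of −0.46 and −0.65 were not called (adjusted p = 0.529 and 0.685 at 2 months and 1 month). Averaging the 3 probes into 1 value left −0.77 at 2 months and −0.80 at 1 month, which were not called (adjusted p = 0.066 and 0.0954), while the average over the ages was (−0.78, adjusted p = 0.00706).

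Within slides, where both genotypes lay side by side, the Gata6 difference was −0.84 and −0.71 on slides 1 and 3 at 2 months and −0.71 and −0.93 on slides 1 and 2 at 1 month. At 2 months both genotypes held both places. The knockout array with an outer place, replicate 3, read 2.30, below the dflox arrays with outer places at 3.26 and 3.11. The dflox array with an inner place, replicate 1, read 3.14, above the knockout arrays with inner places at 2.42 and 2.47. With a term for place the difference was −0.79 at 2 months (adjusted p = 0.00762) and −0.88 at 1 month, where it was no longer called (adjusted p = 0.0891). That term was estimated from the 2-month arrays alone. At 1 month it carries over their estimate and cannot separate place from genotype. With the airway marker level as a covariate the Gata6 difference was −0.75 (adjusted p = 0.00669) at 2 months and −0.89 (adjusted p = 0.0394) at 1 month.

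The cardiomyocyte marker means, given above, and those of 3 other heart cell groups lay lower in the 1-month knockout hearts. The array means of 11 endocardial and valve markers were 0.13 to 0.28 in knockout and 0.44 to 0.64 in dflox hearts. The means of 13 atrial markers were 1.13 to 2.07 in knockout and 2.08 to 2.19 in dflox hearts, and those of 11 fibroblast and mural markers 2.91 to 2.95 in knockout and 3.09 to 3.14 in dflox hearts. At that age 8 of 11 endocardial and valve, 15 of 15 atrial and 11 of 12 fibroblast and mural markers tested lay below 0, and 1 of them, Tmem100 of the endocardial list, was called. At 2 months the genotypes overlapped on the endocardial list (0.11 to 0.37 in knockout, 0.24 to 0.36 in dflox hearts), the atrial list (1.57 to 1.92 in knockout, 1.87 to 2.26 in dflox hearts) and the fibroblast list (2.54 to 2.63 in knockout, 2.57 to 2.65 in dflox hearts). The part of these cell types in the Gata6 result was not tested.

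**Figure D2:**
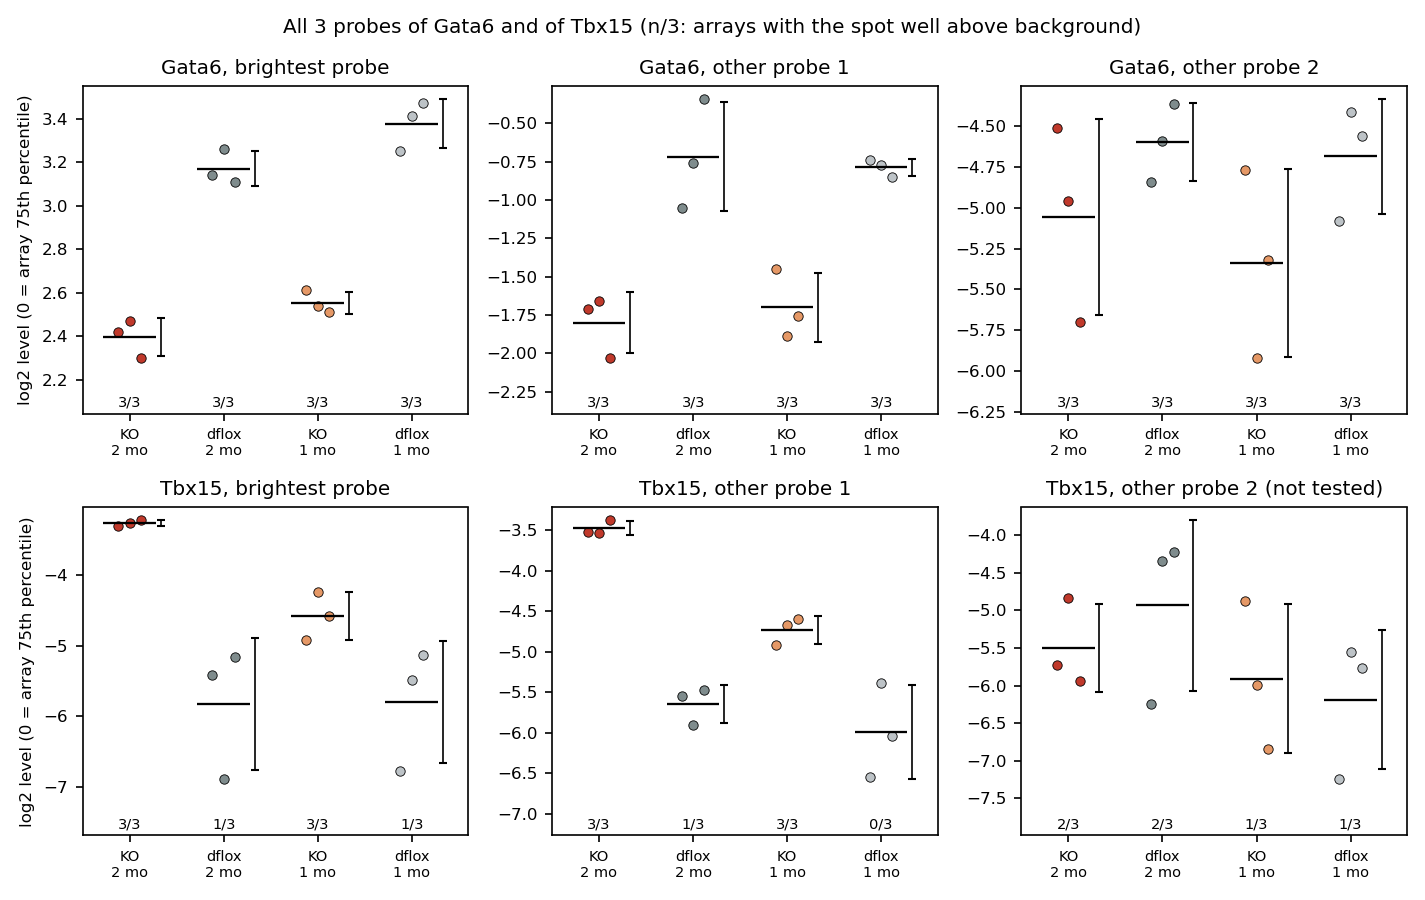
Log2 level of the 3 probes of Gata6 (upper row) and of Tbx15 (lower row) in each heart, with the mean (bar) and SD (whisker, n = 3). Under each group stands how many of its 3 arrays had the spot well above background. The genotypes separate at both ages on the first 2 probes of each gene and overlap on the third.

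Tbx15 was dim in every group. On its brightest probe (chromosome 3, 99149413 to 99149472) the level was −3.31, −3.27 and −3.23 in knockout hearts at 2 months, all 3 well above background, against −5.41, −6.89 and −5.16 in dflox hearts, of which 1 was well above background. The 1-month level was −4.92, −4.24 and −4.58 in knockout hearts, 3 of 3 above background, against −6.77, −5.48 and −5.13 in dflox hearts, again with 1 of 3. The 3 knockout hearts of 2 months lay close together, and the genotypes did not overlap at either age. The probe passed the filter only through the knockout groups, so a difference between the genotypes was built into its selection. Lying higher without overlap at both ages held for 2.77% of all genes. At 2 months the measured difference was 2.56 (SE 0.483, adjusted p = 0.0227), with 2 of the 3 dflox arrays not well above background, so its size is uncertain. At 1 month the difference of 1.21 was not called (SE 0.483, 95% interval 0.14 to 2.28, adjusted p = 0.434), and the average over the ages was 1.88 (SE 0.341, adjusted p = 0.0107).

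A second Tbx15 probe in the same stretch of the gene (99149134 to 99149193) read −3.52, −3.53 and −3.38 in knockout hearts at 2 months, against −5.55, −5.91 and −5.47 in dflox hearts. At the younger age it read −4.92, −4.67 and −4.59 in knockout hearts, against −6.55, −5.39 and −6.04 in dflox hearts, none of which was well above background. Within groups the replicates were tighter on this probe than on the brightest one, except in the knockout hearts of 2 months. This probe too passed the filter only through the knockout groups, so a difference between the genotypes was built into its selection as well. Over all probes it was called at 2 months (2.17, SE 0.248, adjusted p = 0.00187) and in the average (1.72, adjusted p = 3.99e-04). At 2 months 1 of the 3 dflox arrays was well above background, so the size is uncertain. At 1 month the measured difference was 1.27 (SE 0.248) and was not called (adjusted p = 0.0529). No dflox array of that age was well above background on this probe, so this size is uncertain too. The remaining probe, at 99147841 to 99147900, did not pass the filter. It read −5.73, −4.83 and −5.94 in knockout hearts and −6.24, −4.34 and −4.22 in dflox hearts at 2 months, with 2 of 3 arrays above background in each genotype, and the genotypes overlapped.

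Tbx15 at 2 months minus 1 month was 1.31 in knockout hearts on the brightest probe (adjusted p = 0.292) and 1.25 on the second (adjusted p = 0.0792), without overlap between the ages. In dflox hearts, with 1 of 3 arrays above background at each age, the age difference was −0.03 on the brightest probe (95% interval −1.10 to 1.04). On the second probe it was 0.35 (adjusted p = 0.55), with no 1-month dflox array well above background. The genotype difference at 2 months minus that at 1 month was 1.34 on the brightest probe (95% interval −0.17 to 2.86, adjusted p = 0.934). On the second probe that value was 0.90 (95% interval 0.12 to 1.68, unadjusted p = 0.0272, adjusted p = 0.936). Within slides the brightest probe gave 2.18 and 2.76 on slides 1 and 3 at 2 months, and 2.53 and 0.72 on slides 1 and 2 at 1 month.

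The 2-month call of Tbx15 on its brightest probe was lost under several other settings and without single hearts. With the normexp background correction, which adds an offset of 50, the difference was 0.52 (adjusted p = 0.213). With slide as a fixed term it was 2.34 (adjusted p = 0.0652), and with a term for place 2.46 (adjusted p = 0.0614). Leaving out dflox replicate 2, the lowest of the 12, gave 2.02 (adjusted p = 0.052). Leaving out knockout replicate 1, 2 or 3 of that age gave 2.58, 2.56 and 2.54, with adjusted p of 0.0724, 0.0646 and 0.075. The mean level of 12 skeletal muscle markers ran from −1.59 to −1.56 in knockout and from −1.84 to −1.35 in dflox hearts at 2 months. That of 9 fat markers ran from 0.80 to 3.12 in knockout and from 0.84 to 2.90 in dflox hearts at 2 months, so on both lists the genotypes overlapped. Of the 12 skeletal muscle markers 1, Casq1, was called at 2 months, higher in knockout, while 9 of the 12 lay below 0 (median −0.32). At 1 month 2 of them were called higher, where 0.438% of all genes were. In the average 2 were called higher and 3 lower, where 2.25% of all genes were called in each direction. Of 10 fat markers tested 7 lay above 0 at 2 months. All 10 lay below 0 at 1 month (median −0.78), with array means of 0.28 to 2.90 in knockout and 2.44 to 2.73 in dflox hearts. The cartilage marker means, given above, overlapped at 2 months and lay lower in knockout hearts at 1 month. The part of these tissues in the Tbx15 result was not tested.

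Gata4, the zinc finger partner of NKX2-5 and TBX5, was not called on either of its probes. On the brightest one (chromosome 14, 58062775 to 58062796, where 22 bases of the probe are placed) it read −1.53, −1.34 and −0.90 in knockout hearts and −1.52, −1.30 and −1.58 in dflox hearts at 2 months. The 1-month levels were −1.44, −1.37 and −1.39 in knockout hearts and −1.48, −1.51 and −1.67 in dflox hearts. The genotypes overlapped at 2 months and lay just apart at 1 month. The differences were 0.22 (95% interval −0.13 to 0.56) and 0.16 (−0.19 to 0.50) at 2 months and 1 month. The second probe (58063189 to 58063248) is printed in 10 spots per array, with a median SD between spots of 0.0914, below the spread between hearts in each group. It read −1.47, −1.72 and −1.86 in knockout hearts and −2.02, −2.28 and −2.17 in dflox hearts at 1 month, with no overlap (difference 0.47, 95% interval 0.07 to 0.88, adjusted p = 0.426). At 2 months its difference of 0.29 had an interval of −0.12 to 0.69.

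Hand2 encodes a basic helix-loop-helix factor of the right ventricle and of the neural crest. Its 2 probes both span 1360 bases of genome and therefore cross an intron, and they share 23 bases of the transcript. They are printed here because they overlap in the transcript, while the genotypes overlapped on the second and not on the first. Whether their differences differ was not tested. The shared bases are in capitals, and both run 5′ to 3′ on the plus strand of mm7, at chr8:55705252-55706611 and chr8:55705289-55706648.
Hand2, first probe: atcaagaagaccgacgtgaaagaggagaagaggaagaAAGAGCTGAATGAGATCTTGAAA
Hand2, second probe: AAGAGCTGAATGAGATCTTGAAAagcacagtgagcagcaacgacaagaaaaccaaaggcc

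The second probe was the brighter and stands for the gene. It read −0.89, −1.18 and −0.75 in knockout hearts and −0.53, −1.01 and −0.56 in dflox hearts at 2 months, overlapping, with a difference of −0.24 (95% interval −0.64 to 0.16). Its difference at 1 month was −0.06 (−0.46 to 0.33). The first probe read −1.63, −1.78 and −1.78 in knockout hearts and −1.40, −1.38 and −0.88 in dflox hearts at 2 months. The 1-month levels were −1.51, −1.87 and −1.60 in knockout hearts and −1.41, −1.29 and −1.35 in dflox hearts. On the first probe alone the genotypes did not overlap at either age. Over both ages its difference was −0.41 (SE 0.107, adjusted p = 0.0673), against −0.15 on the second probe (SE 0.127, adjusted p = 0.583), and neither was called.

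Nkx2-5, the homeodomain factor that marks the cardiac lineage, had 1 probe (chromosome 17, 25023452 to 25023511). It read 3.74, 4.14 and 3.81 in knockout hearts and 3.91, 4.36 and 4.31 in dflox hearts at 2 months. At 1 month it read 3.97, 3.89 and 3.72 in knockout hearts and 3.87, 3.76 and 3.73 in dflox hearts. The 2-month dflox hearts were the highest group, above all 1-month dflox hearts. The genotype differences were −0.30 (95% interval −0.63 to 0.04, adjusted p = 0.363) and 0.08 (−0.26 to 0.41) at 2 months and 1 month. The age difference in dflox hearts was 0.41 (95% interval 0.07 to 0.74, adjusted p = 0.265), and in knockout hearts 0.03 (−0.30 to 0.37).

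Mef2c, a MADS-box factor that activates muscle structural genes, stood apart from the rest in 1 group. Its brighter probe (chromosome 13, 80738124 to 80738183) read 0.78, 0.78 and 0.54 in knockout hearts and 0.99, 1.43 and 1.23 in dflox hearts at 2 months. At 1 month it read 1.38, 1.15 and 1.07 in knockout hearts and 1.21, 1.30 and 1.04 in dflox hearts. The 2-month knockout hearts were below the hearts of every other group, which overlapped one another. At 2 months the genotypes did not overlap for 17.7% of all genes. The Mef2c genotype difference was −0.51 at 2 months (SE 0.142, 95% interval −0.83 to −0.20) and ranked 739 by p, but it was not called (adjusted p = 0.113). With the normexp background correction it was −0.24 (adjusted p = 0.346). Within slides 1 and 3 it was −0.45 and −0.54. At 1 month it was 0.02 (−0.30 to 0.33). The age difference in knockout hearts was −0.50 (adjusted p = 0.168). The genotype difference at 2 months minus that at 1 month was −0.53 (95% interval −0.98 to −0.09, unadjusted p = 0.024, adjusted p = 0.934). On the brightest probes it was the only one among the 10 genes with an unadjusted p under 0.05. The second Tbx15 probe also had an unadjusted p under 0.05 (0.0272). The other Mef2c probe was not well above background on any array.

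Mef2a, whose protein is the most abundant MEF2 form of adult heart muscle, had 3 probes that passed (chromosome 7, 63093104 to 63096333). The brightest read 2.29, 2.92 and 2.34 in knockout hearts and 2.82, 3.07 and 2.46 in dflox hearts at 2 months. The 1-month levels were 3.43, 2.64 and 2.65 in knockout hearts and 2.79, 2.52 and 2.65 in dflox hearts. The genotypes overlapped on all 3 probes at both ages. The differences were −0.26 (95% interval −0.82 to 0.29) and 0.25 (−0.31 to 0.81) at 2 months and 1 month.

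Srf, the factor that binds CArG boxes of actin and other contractile genes, read 3.60, 3.50 and 3.01 in knockout hearts and 3.40, 3.25 and 3.23 in dflox hearts at 2 months (chromosome 17, 44675728 to 44675786). Hearts of 1 month read 3.35, 3.28 and 3.38 in knockout and 3.44, 3.28 and 3.16 in dflox. All 4 groups overlapped. The differences were 0.08 (95% interval −0.25 to 0.41) and 0.04 (−0.29 to 0.38) at 2 months and 1 month.

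Tbx5, the T-box factor of atria, left ventricle and conduction system, was read by a bright probe (chromosome 5, 119118064 to 119118123) and by a dimmer one that crosses an intron, spanning chr5:119105369-119116931 on the plus strand. The intron-crossing probe is printed because it reads spliced RNA and gave a difference close to that of the other probe.
Tbx5, intron-crossing probe: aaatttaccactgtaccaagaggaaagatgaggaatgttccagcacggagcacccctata

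The bright probe read 1.97, 1.42 and 2.01 in knockout hearts and 2.46, 1.65 and 1.96 in dflox hearts at 2 months. In hearts of 1 month it read 1.42, 1.88 and 1.64 in knockout and 1.90, 2.13 and 2.02 in dflox. The genotypes overlapped at 2 months and not at 1 month, on both probes. Over both ages and in the fit over all probes, the difference was −0.30 on the bright probe (95% interval −0.65 to 0.05, adjusted p = 0.37) and −0.31 on the intron-crossing one (−0.53 to −0.10, adjusted p = 0.117), and neither was called.

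Tbx20, a T-box factor that adult cardiomyocytes need to keep their contractile function, read 0.28, 0.29 and 0.51 in knockout hearts and 0.32, 0.29 and −0.09 in dflox hearts at 2 months on its brightest probe (chromosome 9, 24605717 to 24605776). The 1-month levels were 0.15, 0.07 and 0.12 in knockout hearts and 0.28, 0.00 and 0.16 in dflox hearts. The genotypes overlapped at both ages, with differences of 0.19 (95% interval −0.11 to 0.48) and −0.04 (−0.33 to 0.26) at 2 months and 1 month. A second probe (24607257 to 24607316) had the opposite sign at 2 months, −0.33 (−0.75 to 0.09), and was not called. The other 2 Tbx20 probes did not pass the filter, and 1 of them (24632567 to 24632626) was well above background on 2 of the 3 knockout arrays at 2 months and on 0 of the other arrays.

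**Figure D3:**
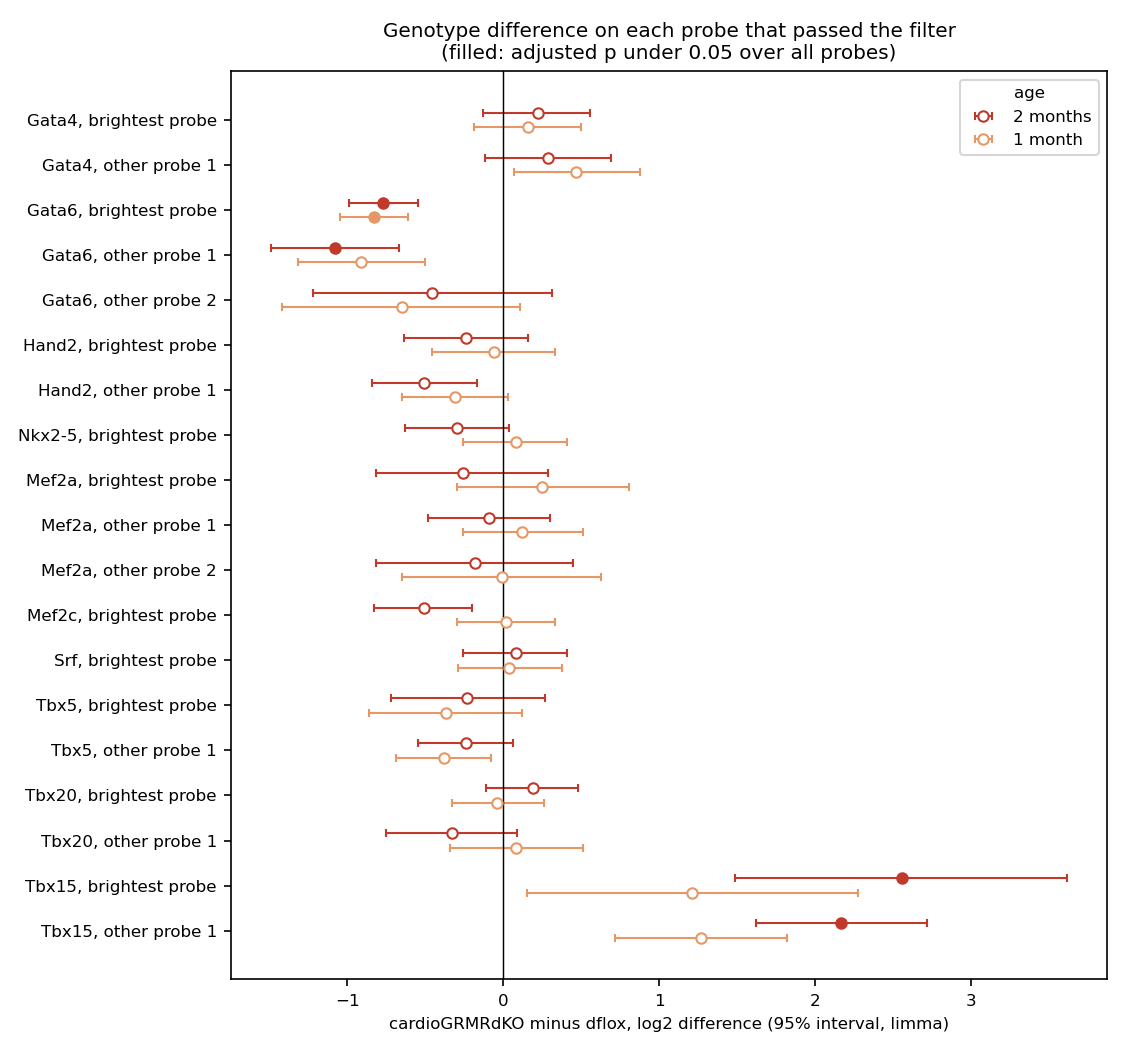
Knockout minus dflox log2 difference (x axis) of each of the 19 probes that passed the filter at 2 months and 1 month, with the 95% interval from limma over all 26979 probes. Filled points had an adjusted p under 0.05. They are the brightest Gata6 probe at both ages, a second Gata6 probe at 2 months and 2 Tbx15 probes at 2 months.

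Between the ages, 0 of 10 genes were called in either genotype. In knockout hearts 0.378% of all genes were called between 2 months and 1 month, and in dflox hearts 0.553%. At an unadjusted p under 0.05, limma gave 2 of the 10 in knockout hearts, Mef2c and Tbx15, among 2271 of 18258 genes, and 1 in dflox hearts, Nkx2-5, among 2582. The ages did not overlap for 4 of 10 genes in knockout hearts (Gata6, Mef2c, Tbx15 and Tbx20), against 18% of all genes, and for 1 of 10 in dflox hearts (Nkx2-5), against 20.2%. The Gata6 difference of 2 months minus 1 month was −0.15 in knockout hearts (95% interval −0.37 to 0.06) and −0.21 in dflox hearts (−0.43 to 0.01). For the genotype difference at 2 months minus that at 1 month, 0 of 18258 genes were called and 644 had an unadjusted p under 0.05.

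Of 14 other T-box genes, 13 were matched to a probe and 7 were tested. Tbx4, Tbx10, Tbx19, Tbx22, Tbr1 and Eomes did not pass the filter. Averaged over the ages 1 of the 7 was called, where 4.5% of all genes were. Tbx3, which encodes a repressor that acts in the conduction system, was that gene. It read 1.31, 1.40 and 0.98 in knockout hearts and 1.68, 2.02 and 1.88 in dflox hearts at 2 months, and it fell by 0.43 in the average (−0.43, SE 0.105, adjusted p = 0.0488). At single ages its differences of −0.63 and −0.22 were not called (adjusted p = 0.0596 and 0.821 at 2 months and 1 month), and leaving out 1 heart ended the averaged call in 10 of 12 cases. The median difference of the 7 genes was −0.23, against −0.06 over all genes. Tbx2 stood at −0.27 (adjusted p = 0.15), Tbx18 at −0.29 (0.287) and Tbx6 at −0.23 (0.354).

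Of 30 other cardiac transcription factors and cofactors, 25 were tested, and averaged over the ages 2 were called higher and 1 lower, where 2.25% of all genes were called in each direction. Their median difference was −0.13, against −0.06 over all genes. Myocd encodes myocardin, the coactivator through which SRF acts on cardiac and smooth muscle genes. It read 0.57, 0.48 and 0.17 in knockout hearts and 1.21, 1.24 and 0.96 in dflox hearts at 2 months, without overlap. It fell 1.66-fold there (−0.73, SE 0.132, adjusted p = 0.0182), while its 1-month difference of −0.21 was not called (adjusted p = 0.78) and the average was −0.47 (adjusted p = 0.0176). The 2-month call of Myocd ended without dflox replicate 1 or 2 of that age (adjusted p = 0.0548 and 0.0798), and also without the filter on dim signals. Its averaged call ended without knockout replicate 2 or 3 of 1 month (adjusted p = 0.0562 and 0.0532). Hopx, a homeodomain protein that does not bind DNA and restrains SRF, read 6.00, 5.88 and 5.77 in knockout hearts and 5.42, 5.58 and 4.99 in dflox hearts at 2 months. At 1 month it read 5.83, 5.93 and 5.78 in knockout hearts and 5.15, 5.15 and 5.09 in dflox hearts, so that all 6 knockout hearts were above all 6 dflox hearts. It rose 1.55-fold in the average (0.63, SE 0.101, adjusted p = 0.00558) and was not called at either age (adjusted p = 0.0886 and 0.0501 at 2 months and 1 month). At 1 month it was called without dflox replicate 2 or 3 of 2 months (adjusted p = 0.038 and 0.0121). Hdac4, a deacetylase that represses MEF2, rose by 0.39 in the average (SE 0.0854, adjusted p = 0.0308), a call that 10 of the 12 fits without 1 heart did not keep. Irx5, a homeodomain factor that shapes the repolarisation gradient, stood at 0.30 (adjusted p = 0.0524). Gata5, Hand1, Isl1, Shox2 and Mesp1 did not pass the filter.

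The 25 listed genes known as targets of GATA4, NKX2-5 and TBX5 were all tested, and averaged over the ages 2 were called higher and 2 lower, where 4.5% of all genes were called. Of the 25 differences 19 were below 0, with a median of −0.22, against −0.06 over all genes. This list shares genes with the cardiomyocyte and atrial marker lists. In the average 9 of 12 cardiomyocyte markers (median −0.11) and 15 of 15 atrial markers (median −0.33) also lay below 0. The part of the shared genes in the count of 19 was not tested. Nppb, which encodes the B-type natriuretic peptide, rose 2.12-fold in the average (1.08, SE 0.203, adjusted p = 0.0127). It rose 2.76-fold at 1 month (5.12, 5.38 and 5.56 in knockout hearts against 4.11, 3.71 and 3.85 in dflox hearts, adjusted p = 0.0464), and its 2-month difference of 0.70 was not called (adjusted p = 0.273). Ankrd1, a stress-responsive cofactor of the sarcomere and nucleus, rose 1.73-fold in the average (0.79, SE 0.117, adjusted p = 0.00512) and 1.91-fold at 1 month (adjusted p = 0.0267), with 1 dflox heart of 2 months unusable. The 1-month calls of both genes ended when any 1 of the 6 hearts of that age was left out (adjusted p = 0.09 to 0.192 for Nppb, 0.0648 to 0.125 for Ankrd1). The Nppb call also ended under 7 of the 11 other settings, and with the airway marker level as a covariate its 1-month difference was 0.87 (adjusted p = 0.415). For Ankrd1 that covariate gave 0.65 (adjusted p = 0.277). Another 2 genes, both of calcium handling, fell in the average: Slc8a1, the sodium-calcium exchanger (−0.53, SE 0.0945, adjusted p = 0.0102) and Ryr2, the calcium release channel (−0.38, SE 0.0715, adjusted p = 0.0126). Slc8a1 was also called at 2 months (−0.64, adjusted p = 0.0371), a call kept in 4 of the 12 fits without 1 heart. With the mean of all its probes the averaged Slc8a1 difference was −0.30 and was not called (adjusted p = 0.229).

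Of 30 listed targets of SRF and MEF2, all tested, 2 were called higher and 0 lower, at 2 months and in the average, where 2.31% and 4.5% of all genes were called. Of the 30 averaged differences 22 were below 0, with a median of −0.13, against −0.06 over all genes. Both were actins. Acta1, the skeletal α-actin that the heart makes before birth and under load, read 6.64, 6.66 and 7.02 in knockout hearts and 5.01, 4.96 and 4.87 in dflox hearts at 2 months, without overlap. It rose 3.55-fold there (1.83, SE 0.329, adjusted p = 0.0178), and its 1-month difference of 0.83 was not called (adjusted p = 0.433). Without knockout replicate 1 or 3 or dflox replicate 2 or 3 the 2-month call of Acta1 ended (adjusted p = 0.0512 to 0.0703), and without dflox replicate 2 of 1 month the 1-month difference was 1.27 and called (adjusted p = 0.0471). Acta2, the smooth muscle α-actin, read 6.76, 6.30 and 6.85 in knockout hearts and 5.68, 5.69 and 5.80 in dflox hearts at 2 months, and it rose 1.88-fold (0.91, SE 0.172, adjusted p = 0.0225). That call ended without knockout replicate 1 or 3 or any 1 of the dflox replicates (adjusted p = 0.0591 to 0.0843). The actin genes have similar sequences, and whether probes of one read RNA of another was not tested. Among other CArG-box genes, Tagln stood at −0.39 (adjusted p = 0.11) and Ckm, the muscle creatine kinase, at −0.29 (adjusted p = 0.115). Of these 10 listed genes called in the averaged comparison, 1, Myocd, was also called once the model held a term for place (−0.62, adjusted p = 0.0424). All others had adjusted p of 0.0648 to 0.426. The place term was estimated from the 2-month arrays alone, because at 1 month place and genotype coincided.

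**Figure D4:**
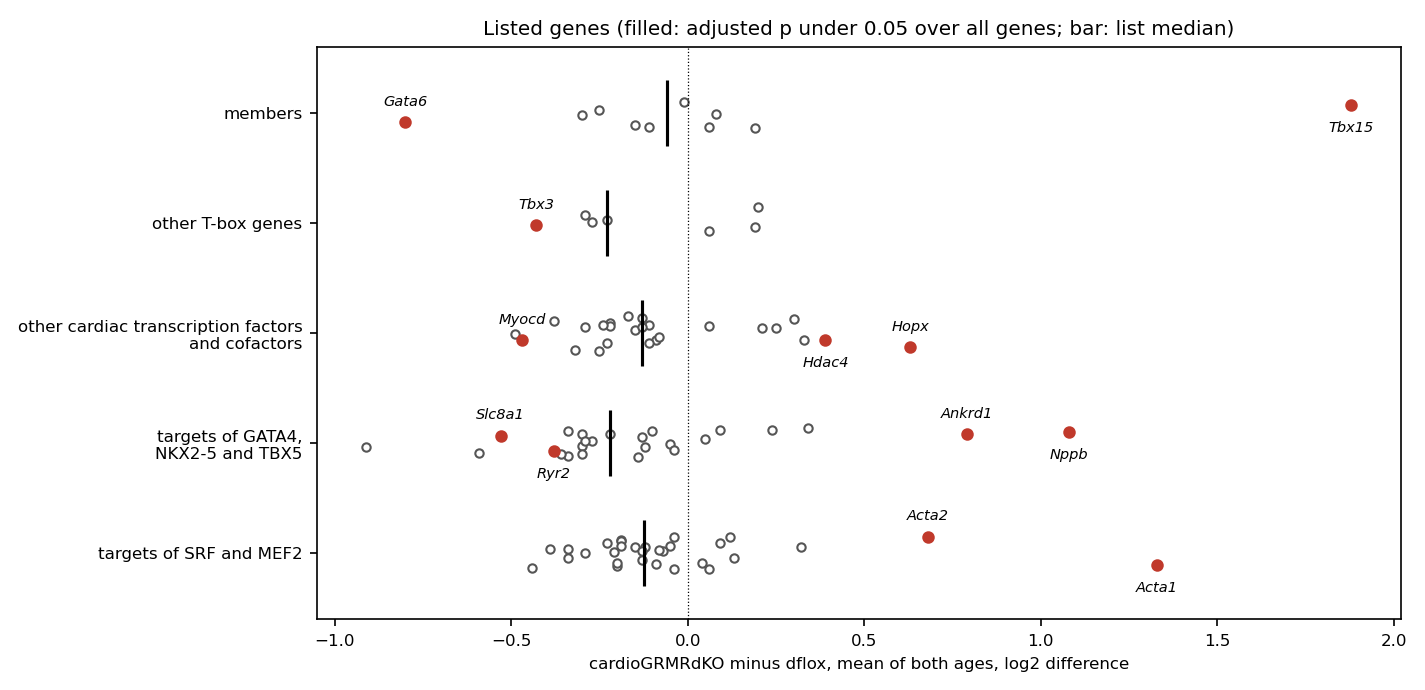
Knockout minus dflox log2 difference averaged over both ages (x axis) of the 10 transcription factor genes ("members") and of the tested genes of the 4 lists, with points spread vertically only to be seen apart. Filled points had an adjusted p under 0.05 and bars are list medians. Most points lie within 0.5 of 0, with Tbx15, Acta1 and Nppb farthest above it.

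Among 17781 other genes with values on all 12 arrays, the levels most like those of Gata6 over the 12 hearts were those of 2210407C18Rik (Pearson r 0.978, Spearman rho 0.951), Plekhf1 (r 0.967, rho 0.902) and Prodh, which encodes proline dehydrogenase (r 0.967, rho 0.867). For Tbx15 they were Tmem62 (r 0.959, rho 0.951), Zfp709 (r 0.955, rho 0.944) and Ift88 (r 0.943, rho 0.951). Both sets were picked for their r from hearts that fall into the 2 genotypes, so they name genes that separate the genotypes like these 2 and are given without a test. For Mef2c they were AK049439 (r 0.940), Eif2s3y (r 0.938) and the endothelial factor gene Sox17 (r 0.934), with rho of 0.895, 0.902 and 0.860. For Nkx2-5 they were Shc2 (r 0.969, rho 0.909), Irs3 (r 0.964, rho 0.944) and Bcr (r 0.963, rho 0.916). For the other 6 genes the highest r ran from 0.878 (Hand2 with Esrrb) to 0.952 (Gata4 with Samhd1).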

How the data were processed

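The authors hybridised Cy3-labelled cRNA from total RNA of each heart, and the arrays were read with Agilent Feature Extraction, version 9.5 per the submitters' processing notes and, as the file headers give it, 9.5.3.1. Scanner files as deposited hold per spot a processed intensity on a linear scale with background already subtracted, and probe positions on mouse build mm7. No annotation of that build was used here, so exons and UTRs are not given. Control and outlier spots were left out. Each array's 75th percentile was subtracted from log2 intensity, and spots of a probe were averaged. A probe was kept if any group had it well above background on its 3 arrays, and the brightest probe stood for a gene. Probes were named from RefSeq accessions and symbols.

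All 12 arrays entered a single linear model of 4 group means (limma 3.58.1, R 4.3.3 and the data.table package, version 1.17.8), with Benjamini-Hochberg adjustment over all genes within a comparison and two-sided tests. With 3 hearts a group, exact permutation cannot reach below p = 0.10 and was not used. The labels number the hearts as replicates, and the number of arrays limits the precision. Each p-value sets a difference against the spread between hearts within groups. That spread is pooled over the 4 groups and drawn toward the spread of all genes. In simulated data 200 of 17782 genes were changed, 50 by each size. The fit at 2 months called 90% and 78% of genes changed by −2 and 2 on the log2 scale. It called 62% and 50% of those changed by −1 and 1, and the gap between directions was not tested. The simulated noise was independent and normal, without slide, place or tissue differences, so these shares need not hold for these arrays. Named are the 10 genes, Nr3c1 and Nr3c2, each gene of the 4 lists called in a genotype comparison and otherwise up to 4 per list by smallest averaged p, and per gene the 3 others with the highest r. Casq1 and Tmem100 were named after their values were seen. The genes and lists were chosen with earlier results of these data known, and 1 gene of the target lists is not reported here. Replicate numbers did not pair hearts: correlations of same-numbered deviations ran from −0.490 to 0.551.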

Additional observations from a re-analysis of the deposited data

How the results depend on the processing

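The results were recomputed with other settings and with each of the 12 hearts left out, and no called difference changed direction. Of these 23 fits, Gata6 was called in 21 at 2 months and at 1 month and in all 23 in the average, and its differences, within-slide values included, ran from −0.84 to −0.61, −0.93 to −0.71 and −0.83 to −0.70. At 1 month the 1 gene called became 0 with the mean of all probes (Gata6 adjusted p = 0.0954) and with place in the model (0.0891). The place term was estimated from the 2-month arrays alone, here and in the average. At 2 months the 2 genes called became 0 with normexp (Gata6 −0.61, adjusted p = 0.0664, Tbx15 0.52, 0.213). They became 1 without a filter (Tbx15 adjusted p = 0.0519), with the filter on all 12 arrays (Tbx15 not tested), with the mean of all probes (Gata6 adjusted p = 0.066), with slide as a fixed term (Tbx15 0.0652) and with place (Tbx15 0.0614). Leaving out 1 heart gave 1 to 2 genes at 2 months: Tbx15 was not called without dflox replicate 2 (adjusted p = 0.052) or without knockout replicate 1, 2 or 3 (0.0724, 0.0646 and 0.075). In the average the 2 became 1 with normexp (Tbx15 0.30, adjusted p = 0.236), with the filter on all 12 arrays and with place (1.70, 0.199). Over all genes, 422 were called at 2 months against 247 with normexp (88 higher and 159 lower, against 201 and 221), 243 without a filter and 240 to 389 without 1 heart. Quantile normalization split 421 into 236 higher and 185 lower and moved the median of all genes at 2 months to −0.019, against −0.095, and normexp to −0.131. At 1 month 179 were called against 109 with normexp (41 higher and 68 lower, against 80 and 99), 91 without a filter, 9 with place (2 higher and 7 lower), 39 with the airway covariate and 83 to 232 without 1 heart. In the average 821 were called against 489 with normexp, 518 without a filter, 257 with place and 508 to 802 without 1 heart. For the ages, 69 in knockout and 101 in dflox hearts became 13 and 17 without a filter, and 8 and 6 with the airway covariate. With the replicate block, whose numbers share no known litter or day, the same members were called (2 at 2 months and in the average, 1 at 1 month) among 326, 691 and 136 genes, and 3 of 12 hearts correlated best with their own number. The causes of these changes were not tested. Of the dflox arrays, 1 of 3 at each age had the brightest Tbx15 probe well above background.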
